A study of Mus musculus with 15 samples.

Results

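The immediate early genes described here were 10 mouse genes, namely the Jun family members Jun and Junb, the Fos family members Fos, Fosb, Fosl1 and Fosl2, and Atf3, Egr1, Ier3 and Dusp1. Members were taken by gene name from the array design, and 12 of the 41174 probes carried one of the names. Junb and Fosl2 had 2 probes each and the other 8 genes had 1. All 12 probes passed the filter on dim signal. The 10 genes were tested within 21303 genes.

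The samples were 8 laser-captured pieces of colon from female Swiss Webster mice, each with its own animal code, in 4 groups of 2. All 8 mice had received the colon carcinogen azoxymethane (AOM) at 7.4 mg/kg and 3 cycles of 4% dextran sulfate sodium (DSS), which injures the colon lining, with 7 days of DSS and 21 days of water per cycle. The groups were polypoid tissue from mice given 5-ASA (5-aminosalicylic acid, an anti-inflammatory drug, 75 mg/kg), polypoid tissue from untreated mice, inflamed tissue from mice given 5-ASA, and inflamed tissue from untreated mice. The series text names a vehicle for the untreated arm, and the sample labels give no treatment. Ages were 7 weeks on entry, 9 weeks when DSS began and 18 weeks at sacrifice. No colon without AOM and DSS was analysed here, so every level is from carcinogen-exposed and injured colon. Of the captured samples, 7 were hybridised on 2 arrays with the dyes swapped and 1, from the inflamed tissue of a 5-ASA mouse (animal 2), on a single array, always beside a universal mouse reference RNA. A level below is log2 of sample over that reference, 1 value per animal, so a level compares animals for 1 gene and not 1 gene with another. P-values measure the spread between these captured samples.

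Immediate early genes are transcribed within minutes of a growth factor, cytokine or stress signal, without the need for new protein synthesis. Jun and Fos proteins pair into the dimeric transcription factor AP-1, and the MAP kinase pathways switch many of these genes on. Their transcripts are short-lived and are also induced when tissue is cut, warmed or left without blood flow. In the colon, AP-1 is known for its part in repair of the injured lining and in tumour growth downstream of growth factor signals.

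The promoters of the genes on which the results turn are printed here to show which known response elements lie next to their start sites. Of the 10 genes, 8 had an entry in the RefSeq promoter table (GRCm38.p6, 250 bases before to 50 bases after the start site), and Egr1 and Fosl1 are named only. The windows lie at chr4:95052173-95052472, minus strand, for Jun, chr12:85473640-85473939, plus strand, for Fos, chr17:35821463-35821762, plus strand, for Ier3, and chr17:26508423-26508722, minus strand, for Dusp1. Capitals mark TGACATCA, a variant AP-1 element, in Jun, the element core TGACG in Fos, an NF-kB site in Ier3, and in Dusp1 the cAMP response element (CRE) TGACGTCA together with a further TGACG.
Jun: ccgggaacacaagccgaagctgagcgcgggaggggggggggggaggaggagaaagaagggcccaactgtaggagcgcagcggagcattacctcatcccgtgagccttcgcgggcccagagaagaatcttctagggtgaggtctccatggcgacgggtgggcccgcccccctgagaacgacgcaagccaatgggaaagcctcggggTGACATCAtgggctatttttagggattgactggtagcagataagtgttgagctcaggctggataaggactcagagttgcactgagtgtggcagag
Fos: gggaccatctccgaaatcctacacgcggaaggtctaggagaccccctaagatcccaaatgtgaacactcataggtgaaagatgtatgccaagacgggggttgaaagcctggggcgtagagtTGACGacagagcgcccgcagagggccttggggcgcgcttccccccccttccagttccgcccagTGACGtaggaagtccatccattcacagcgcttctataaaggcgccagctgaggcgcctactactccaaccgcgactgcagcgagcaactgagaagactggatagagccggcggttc
Ier3: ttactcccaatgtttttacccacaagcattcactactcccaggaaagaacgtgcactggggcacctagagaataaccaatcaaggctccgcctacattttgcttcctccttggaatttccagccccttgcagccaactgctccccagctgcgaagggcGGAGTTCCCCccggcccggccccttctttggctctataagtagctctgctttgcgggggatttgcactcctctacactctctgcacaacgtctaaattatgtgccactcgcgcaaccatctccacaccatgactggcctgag
Dusp1: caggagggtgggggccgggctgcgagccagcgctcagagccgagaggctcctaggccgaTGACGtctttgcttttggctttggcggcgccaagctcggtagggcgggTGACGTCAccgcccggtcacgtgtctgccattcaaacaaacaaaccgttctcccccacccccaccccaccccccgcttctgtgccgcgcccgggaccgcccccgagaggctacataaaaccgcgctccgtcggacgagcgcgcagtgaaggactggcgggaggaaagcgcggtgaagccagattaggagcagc

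Positions are counted from the start site, the first transcribed base being 1 and the base before it -1. The Jun element lay at -45 to -38, and 3.62% of all 32851 promoters held that motif on either strand. The Fos TGACG cores lay at -129 to -125 and at -66 to -62, and TGACG was found in 5 of the 8 listed genes and in 20.8% of all promoters. The NF-kB site in Ier3 lay at -92 to -83 on the opposite strand, and sites of that kind were found in 4 of the 8 and in 8.46% of all promoters. The full CRE of Dusp1 lay at -143 to -136 and contains the TGACG core on both strands. It was found in 1 of the 8 and in 1.79% of all promoters. The AP-1 site TGANTCA, held by 7.81% of all promoters, and the CArG box bound by serum response factor, held by 1.63%, were in none of the 8 windows. All motifs were searched on both strands, and a match describes letters only. Bases more than 250 before the start site, and the promoters of Egr1 and Fosl1, were not searched. An absence thus holds for these windows only.

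The arrays were scanned in 4 sessions. Session 1 held animal 1 of both inflamed groups, session 2 animal 1 of both polypoid groups, session 3 animal 2 of both polypoid groups and of the untreated inflamed group, and session 4 animal 2 of the 5-ASA inflamed group. Between 57.3% and 90.8% of probes were well above background on an array. Of the members, Fosl1 was well above background on 13 of the 15 arrays, the dimmer Fosl2 probe on 14, and every other probe on all 15, and none was saturated. Animals of the same group correlated at r of 0.87 to 0.94 over all genes tested. Epithelial markers averaged 2.83 to 3.51 in polypoid and 3.10 to 3.57 in inflamed samples, with 10 of 10 markers above background on every array of each group.

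Polypoid tissue was set against inflamed tissue to ask which members differ between polypoid and inflamed colon. Ier3 rose 8.29-fold and Jun 1.72-fold in polypoid tissue over both treatment arms, and the other 8 members did not pass the test. The 2 called members stand beside 5.96% of all genes called in this comparison (1270 of 21303; limma, adjusted p under 0.05). Both were also higher in all 4 polypoid than in all 4 inflamed samples, as were 8.36% of genes. With scan session as a fixed block, which leaves 1 residual degree of freedom, no gene was called, and 3082 had an unadjusted p under 0.05. The median difference of the 10 members was 0.26 log2 units, against -0.02 for all genes.

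**Figure D1:**
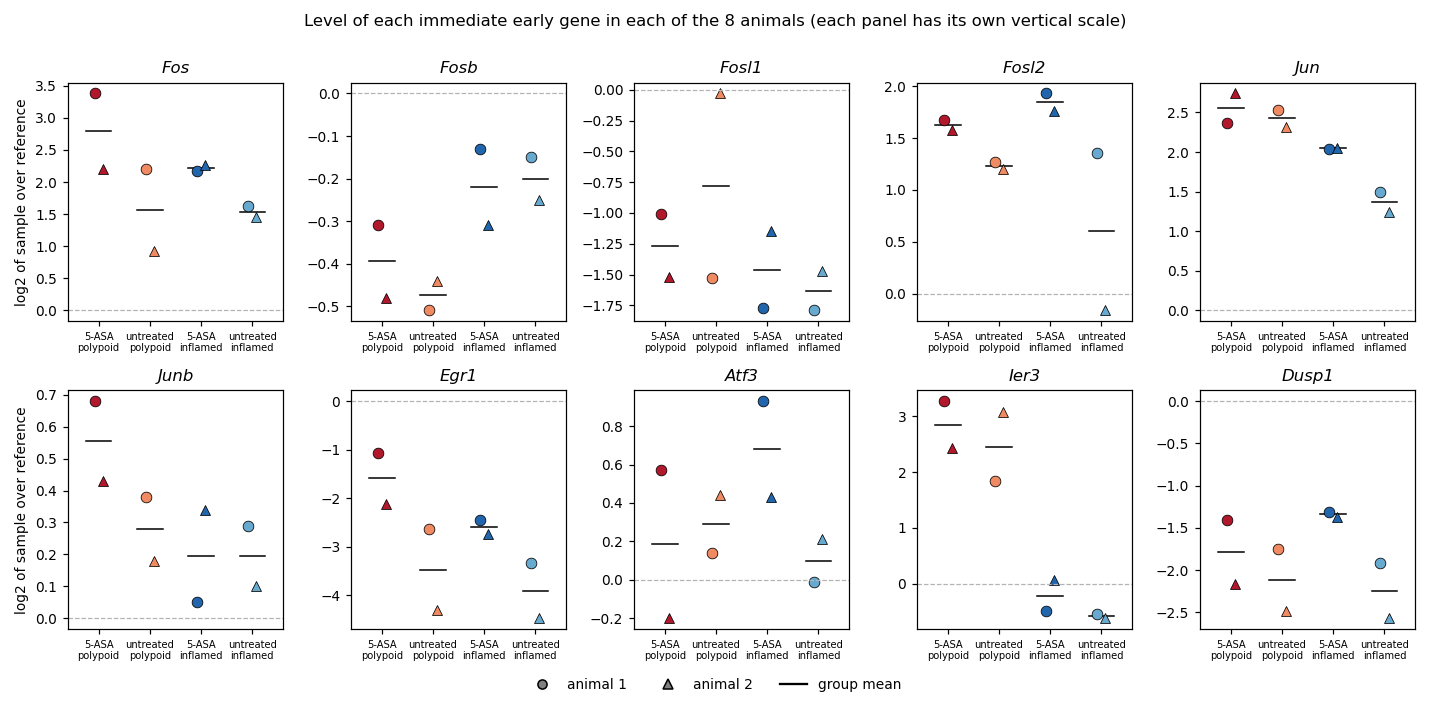
Level of each of the 10 genes as log2 of sample over reference, with 1 point per animal (circle for animal 1, triangle for animal 2) and a bar for the mean of each group of 2. Ier3 and Jun lie higher in all 4 polypoid animals than in all 4 inflamed animals, Fosb lies lower, and Egr1 spans the levels from -4.47 to -1.06.

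Ier3 encodes a small membrane-associated protein that regulates cell survival and MAP kinase and NF-kB signalling. Its level was 3.27 and 2.43 in 5-ASA polypoid tissue and 1.84 and 3.07 in untreated polypoid tissue, against -0.49 and 0.06 in 5-ASA inflamed tissue and -0.54 and -0.62 in untreated inflamed tissue. The lowest polypoid sample thus lay well above the highest inflamed sample. The difference was 3.05 ± 0.33 log2 units (SE; limma adjusted p = 0.0109), with means of 2.65 ± 0.65 in polypoid and -0.40 ± 0.31 in inflamed tissue (SD, n = 4 each). It was 3.07 ± 0.47 in the 5-ASA arm (adjusted p = 0.0324, where 3.07% of genes were called) and 3.04 ± 0.47 in the untreated arm (adjusted p = 0.0909, where 0.164% of genes were called). Within session 3, the only session to hold both tissues, the 5-ASA and untreated polypoid animals lay 3.05 and 3.69 log2 units above the untreated inflamed animal. Across 12 other processing settings the difference over both arms ran from 2.86 to 3.77. The Ier3 spot was dim in inflamed tissue, with a log2 sample signal of 6.62 to 7.45, though well above background on every array. The call over both arms was lost without 5-ASA inflamed animal 1 (difference 2.92, adjusted p = 0.0674) and with session as a fixed block (3.34, adjusted p = 0.345, with 1 residual degree of freedom), while the size of the difference stayed between 2.75 and 3.36 when any 1 animal was left out. The call in the 5-ASA arm was lost without either 5-ASA polypoid animal or any 1 of the 4 inflamed animals (differences of 2.65 to 3.49, adjusted p from 0.0574 to 0.226).

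Jun encodes a core subunit of AP-1. Its level was 2.37 and 2.74 in 5-ASA polypoid and 2.53 and 2.32 in untreated polypoid tissue, against 2.04 and 2.05 in 5-ASA inflamed and 1.50 and 1.24 in untreated inflamed tissue. The groups formed steps, with the polypoid groups overlapping each other, 5-ASA inflamed tissue below them and untreated inflamed tissue lowest without overlap. The polypoid over inflamed difference was 0.78 ± 0.13 log2 units (SE; limma adjusted p = 0.0271). It was 0.51 ± 0.18 in the 5-ASA arm (adjusted p = 0.203) and 1.05 ± 0.18 in the untreated arm (adjusted p = 0.119). Within session 3, the 5-ASA and untreated polypoid animals lay 1.50 and 1.08 above the untreated inflamed animal. The call was narrow. It was lost when any 1 of 7 animals was left out (differences of 0.69 to 0.87, adjusted p from 0.0542 to 0.115), on the arrays with the sample in Cy3 alone (0.74, adjusted p = 0.0529) and with session as a fixed block (1.02, adjusted p = 0.345), and was kept without untreated inflamed animal 1.

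Junb, the Jun relative that often restrains Jun, was at 0.68 and 0.43 in 5-ASA polypoid and 0.38 and 0.18 in untreated polypoid tissue, against 0.05 and 0.34 in 5-ASA inflamed and 0.29 and 0.10 in untreated inflamed tissue. The tissues overlapped, and the difference was 0.22 ± 0.12 (SE; limma adjusted p = 0.353). Its dimmer probe differed by -0.02.

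Among the Fos family, which need a Jun partner to bind DNA, no member passed the test between tissues. Fos itself was at 3.38 and 2.20 in 5-ASA polypoid and 2.21 and 0.93 in untreated polypoid tissue, against 2.17 and 2.26 in 5-ASA inflamed and 1.62 and 1.46 in untreated inflamed tissue. The polypoid samples held both the highest and the lowest value, and the difference was 0.30 ± 0.36 (SE; limma adjusted p = 0.669), which turned to -0.02 without untreated polypoid animal 1 and to -0.17 with session as a fixed block. Fosb, a close relative of Fos, was at -0.31 and -0.48 in 5-ASA polypoid and -0.51 and -0.44 in untreated polypoid tissue, against -0.13 and -0.31 in 5-ASA inflamed and -0.15 and -0.25 in untreated inflamed tissue. All 4 polypoid samples lay below all 4 inflamed samples, as for 7.92% of genes, but the margin was under 0.01 log2 units and the difference of -0.22 ± 0.10 did not pass the test (SE; adjusted p = 0.237).

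Fosl1 (FRA1), a Fos relative tied to invasive growth, was at -1.01 and -1.52 in 5-ASA polypoid and -1.53 and -0.03 in untreated polypoid tissue, against -1.77 and -1.15 in 5-ASA inflamed and -1.79 and -1.47 in untreated inflamed tissue. One untreated polypoid animal stood above the other 7. The difference was 0.52 ± 0.36 (SE; limma adjusted p = 0.448), and the 2 arrays on which Fosl1 was not well above background were both from inflamed tissue, 1 in each arm. Fosl2 (FRA2) was at 1.67 and 1.58 in 5-ASA polypoid and 1.27 and 1.20 in untreated polypoid tissue, against 1.93 and 1.76 in 5-ASA inflamed and 1.36 and -0.16 in untreated inflamed tissue. The single low value came from untreated inflamed animal 2. The difference was 0.20 ± 0.32 (adjusted p = 0.755), -0.18 without that animal (adjusted p = 0.394) and 0.59 without untreated inflamed animal 1 (adjusted p = 0.0487).

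Atf3, a stress-induced factor that can pair with Jun, was at 0.57 and -0.20 in 5-ASA polypoid and 0.14 and 0.44 in untreated polypoid tissue, against 0.93 and 0.43 in 5-ASA inflamed and -0.01 and 0.21 in untreated inflamed tissue. The tissues overlapped, with a difference of -0.16 ± 0.21 (SE; limma adjusted p = 0.716). Dusp1, a phosphatase that switches MAP kinases off, was at -1.41 and -2.16 in 5-ASA polypoid and -1.75 and -2.48 in untreated polypoid tissue, against -1.31 and -1.37 in 5-ASA inflamed and -1.92 and -2.57 in untreated inflamed tissue. Its difference was -0.15 ± 0.26 (adjusted p = 0.776), and both signs turned when 5-ASA polypoid animal 2 was left out (Atf3 0.03, Dusp1 0.03). Egr1, a zinc finger factor and a classic immediate early gene, differed by 0.72 ± 0.47 (adjusted p = 0.416), and its values are given with the treatment comparison.

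**Figure D2:**
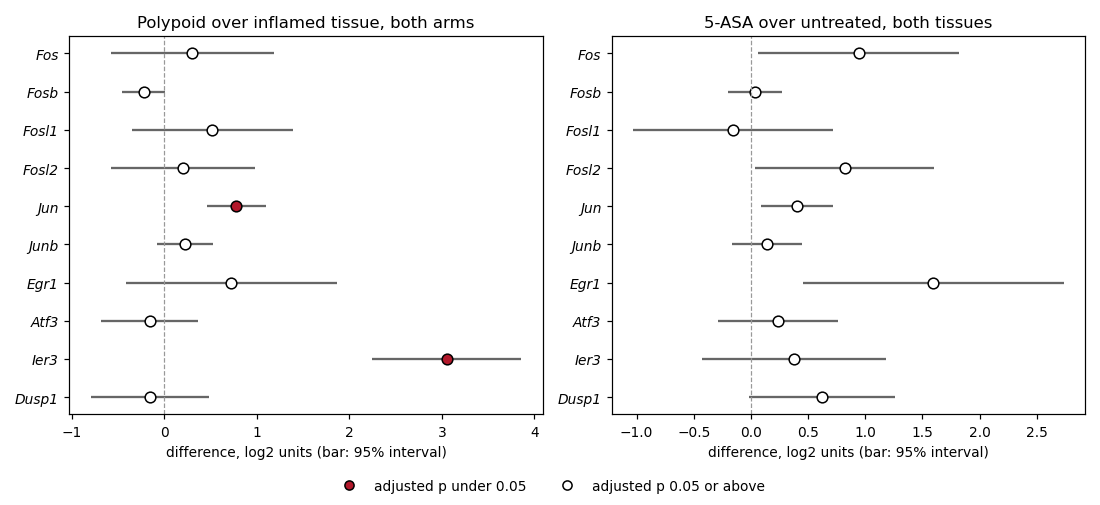
Difference in log2 units for each member, polypoid over inflamed over both arms (left) and 5-ASA over untreated over both tissues (right), with 95% intervals from limma. Ier3 at 3.05 and Jun at 0.78 pass the test on the left, and no member passes on the right, where Egr1 at 1.60 lies farthest from 0.

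The effect of 5-ASA was asked within the same fit, over both tissues and in each. No member and no gene was called in any of the 3 treatment comparisons (0 of 21303 genes, 0% called; limma, adjusted p under 0.05). At an unadjusted p under 0.05 over both tissues, 4 of the 10 members were higher with 5-ASA, Egr1, Fos, Fosl2 and Jun, against 3.95% of all genes higher and 6.35% in either direction. That count was 2 without any 1 of 5-ASA polypoid animal 1, untreated polypoid animal 2, 5-ASA inflamed animal 1 or untreated inflamed animal 2, and 1 without 5-ASA inflamed animal 2. The members were chosen with earlier results of these data known, and some moved together (Fos and Egr1, r = 0.94). Counts of members thus only describe. In polypoid tissue alone 1 member, Egr1, passed that unadjusted threshold, against 7.73% of genes (1646), and in inflamed tissue alone 3 did, Jun, Fosl2 and Dusp1, against 4.34% (925). Of the 10 differences over both tissues, 9 were above 0, as were 48% of all genes, and the median was 0.39 log2 units, against -0.01 for all genes. No cell type marker was called in the same comparison. Epithelial markers had a median difference of -0.11, with 4 of 10 above 0. In polypoid tissue their median was -0.44, with 0 of 10 above 0 and 4 of 10 at an unadjusted p under 0.05. In inflamed tissue it was 0.18, with 8 of 10 above 0 and 2 of 10 at that threshold. Smooth muscle markers had a median difference of -0.62, with 0 of 10 above 0 and 4 of 10 at an unadjusted p under 0.05, and in inflamed tissue a median of -0.95 with 5 of 10. B and plasma cell markers had a median of -0.70, with 1 of 9 above 0 and 2 of 9 at an unadjusted p under 0.05. The heat shock and stress list had a median of -0.22, with 6 of 17 above 0. Its median was -0.32 in polypoid tissue (4 of 17 above 0) and 0.12 in inflamed tissue (9 of 17). Macrophage and fibroblast markers had medians of 0.39 and 0.30 in inflamed tissue, each with 9 of 10 above 0. In polypoid tissue their medians were -0.15 and -0.28. The part of these lists in the members' 5-ASA differences was not tested.

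Egr1 had the widest difference. Its level was -1.06 and -2.11 in 5-ASA polypoid tissue against -2.64 and -4.30 in untreated polypoid tissue, and -2.45 and -2.74 in 5-ASA inflamed tissue against -3.34 and -4.47 in untreated inflamed tissue. In each tissue both 5-ASA animals lay above both untreated animals, while 5-ASA inflamed animals overlapped untreated polypoid ones. The difference was 1.60 ± 0.47 log2 units, or 3.02-fold (SE; unadjusted p = 0.0138, limma adjusted p = 0.773), with a 95% interval of 0.46 to 2.74. Between animals scanned in the same session it was 1.58 and 2.19 in polypoid and 0.89 in inflamed tissue.

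Fos averaged 2.50 ± 0.58 in 5-ASA and 1.56 ± 0.53 in untreated animals (SD, n = 4 each), a difference of 0.94 ± 0.36 (SE; unadjusted p = 0.0396, limma adjusted p = 0.779). Fos was highest in 5-ASA polypoid animal 1, and nearly equal in 5-ASA polypoid animal 2 and untreated polypoid animal 1. Same-session differences of Fos were 1.16 and 1.27 in polypoid and 0.54 in inflamed tissue, all above 0. Fosl2 differed by 0.82 ± 0.32 (unadjusted p = 0.0422, adjusted p = 0.782) without overlap in either tissue, and by 0.44 without untreated inflamed animal 2. Its same-session differences were 0.40 and 0.38 in polypoid and 0.57 in inflamed tissue, whereas its dimmer probe differed by -0.01 over both tissues.

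Jun differed by 0.41 ± 0.13 with 5-ASA (SE; unadjusted p = 0.0193, limma adjusted p = 0.775). The value was 0.68 ± 0.18 in inflamed tissue (unadjusted p = 0.00944, adjusted p = 0.975) and 0.13 ± 0.18 in polypoid tissue (adjusted p = 0.955), and the test of the difference between these gave -0.55 ± 0.26 (unadjusted p = 0.0775, adjusted p = 0.868). Between animals of the same session Jun differed by -0.16 and 0.42 in polypoid and 0.54 in inflamed tissue. Dusp1 differed by 0.62 ± 0.26 (unadjusted p = 0.0549, adjusted p = 0.782), with same-session differences of 0.34 and 0.33 in polypoid and 0.61 in inflamed tissue. Ier3 differed by 0.38 ± 0.33, Atf3 by 0.24 ± 0.21, Junb by 0.14 ± 0.12, Fosb by 0.03 ± 0.10 and Fosl1 by -0.16 ± 0.36 (adjusted p from 0.902 to 0.977). Junb's dimmer probe differed by -0.17.

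Fos, Fosl2, Egr1 and Dusp1 were higher with 5-ASA in all 3 same-session pairs, as were 16% of genes. Egr1 and Fosl2 did not overlap between arms in either tissue, as for 3.3% of genes. For the difference of the 5-ASA effect between polypoid and inflamed tissue, no member had an unadjusted p under 0.05, against 5.96% of genes, and no gene was called (0%). The 95% intervals of these differences were wide, for instance -1.70 to 2.85 for Egr1.

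**Figure D3:**
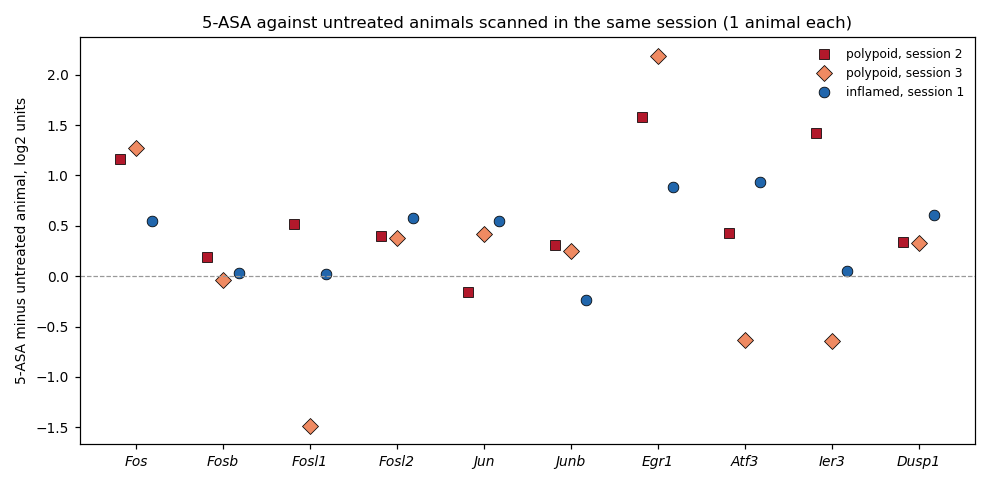
Difference of the 5-ASA minus the untreated animal, in log2 units, for the 3 pairs of animals of the same tissue scanned in the same session (squares and diamonds polypoid, circles inflamed), with 1 animal on each side and so no error bar. Fos, Fosl2, Egr1 and Dusp1 lie above 0 in all 3 pairs, while Fosl1, Ier3, Jun, Junb, Atf3 and Fosb lie on both sides of 0.

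The range over the 8 animals, which includes the differences between groups, was 3.89 log2 units for Ier3, 3.41 for Egr1, 2.44 for Fos and 2.10 for Fosl2, and 8.89% of genes had a range of 2 or more. The gap between the 2 animals of a group was 0.07 to 1.23 for Ier3, 0.29 to 1.66 for Egr1 and 0.09 to 1.28 for Fos. For Fosl2 it was 1.52 in untreated inflamed tissue and at most 0.18 in the other groups. Over all genes the median range was 0.83, and Junb at 0.63 and Fosb at 0.38 lay below it. Egr1 spanned a 10.6-fold range of levels, from untreated inflamed animal 2 to 5-ASA polypoid animal 1, and those 2 animals also held the lowest and highest mean of the standardized levels of the 10 members. The difference between the dye-swapped arrays of an animal had an SD of 0.14 for Egr1, 0.14 for Ier3 and 0.13 for Fos, against an SD over the 8 animals of 1.13, 1.70 and 0.72. For Junb these were closer, at 0.14 between arrays and 0.20 over animals, and likewise for Fosb, at 0.09 and 0.14. The 2 kinds of SD are unlike measures, since 1 is of a difference between arrays and the other of levels that combine an animal's arrays. Within every group, animal 2 was lower than animal 1 for Egr1, Dusp1 and Fosl2, as for 12.1% of genes. Animal 1 of each group was scanned in sessions 1 and 2 and animal 2 in sessions 3 and 4, so animal and session cannot be told apart within a group.

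Across the 8 animals Fos and Egr1 moved together (Pearson r = 0.94), and Dusp1 followed both (r = 0.75 with each), as a description over animals that share the array, reference and sessions. Jun and Ier3 had r = 0.79, while Ier3 and Dusp1 had r = -0.10. Fosb ran against Ier3 (r = -0.75) and Jun (r = -0.73). All these r values pool the 4 groups and so include the differences between tissues. Ier3 and Jun were higher, and Fosb lower, in all 4 polypoid than in all 4 inflamed samples. Fosb spanned only 0.38 log2 units over the 8 animals. Outside the 10 members, the genes most like Fos over the 8 animals by Pearson r were Prkar1b (r = 0.95), Zfp119a (0.95), Rpgr (0.93), Pdcd10 (0.93) and Cd80 (0.93), and 0.136% of genes had r above 0.9. Of these, Cd80 ran only from -0.26 to -0.09 and Prkar1b from 0.2 to 0.54, against 0.93 to 3.38 for Fos. Zfp119a ran from -0.89 to 0.2, Rpgr from -1.69 to -0.2 and Pdcd10 from -1.22 to 0.72. Again outside the members, those most like the mean of the 10 were Gpatch2l (r = 0.98), Krit1 (0.97), Ythdf3 (0.96), Traf6 (0.96) and Acvr2a (0.96).

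Related genes were counted in the same fit, where 5.96% of all genes were called for polypoid over inflamed tissue over both arms. The lists were chosen with earlier results of these data known, so their counts only describe. Among 16 measured dual specificity phosphatases and ERK feedback genes, 5 rose in polypoid tissue and none fell, with a median difference of 0.47. They included Dusp4, a nuclear MAP kinase phosphatase, at 3.05 ± 0.14 log2 units (limma adjusted p = 0.00245), Phlda1, an ERK-responsive gene, at 3.48 ± 0.27 (adjusted p = 0.00487), and the phosphatases Dusp14 at 1.83 ± 0.19 and Dusp10 at 0.99 ± 0.10 (adjusted p = 0.00972 and 0.00976; SE throughout). Dusp4 was at 1.61 and 1.77 in 5-ASA polypoid and 0.60 and 0.64 in untreated polypoid tissue, against -2.16 and -1.89 in 5-ASA inflamed and -2.01 and -1.51 in untreated inflamed tissue, with no overlap. Its other probe gave 1.09. In this ERK feedback list Dusp6 at 0.12, Spry1 at 0.19, Spry2 at -0.11, Spry4 at 0.57 and Etv4 at -0.01 were not called. The list's count was 3 without 5-ASA inflamed animal 1, and 4 to 6 without any other animal.

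Among 19 measured textbook targets of AP-1, 9 rose and none fell, beside 5.96% of all genes called. This list too was chosen with earlier results of these data known, and its median was 1.16. S100a9 at 4.32 ± 0.19 and S100a8 at 4.47 ± 0.39, the calprotectin subunits, led the list (SE; limma adjusted p = 0.00245 and 0.00622), followed by the adhesion receptor Cd44 at 1.95 ± 0.20 (adjusted p = 0.00959) and the secreted protein Spp1 at 3.54 ± 0.46 (adjusted p = 0.0155). The other Cd44 probes gave 1.50 and -0.10. S100a8 and S100a9 are also neutrophil genes, and the count was 3 without 5-ASA inflamed animal 1, 4 without 5-ASA polypoid animal 2 or untreated inflamed animal 2, 5 without 5-ASA inflamed animal 2, 6 without 5-ASA polypoid animal 1, untreated polypoid animal 2 or untreated inflamed animal 1, and 7 without untreated polypoid animal 1.

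Of 45 further immediate early and AP-1 family genes, 3 rose and 1 fell in polypoid tissue, beside 5.96% of all genes called. The median of the list was 0.05, against -0.02 for all genes. The growth regulator Myc rose by 1.89 ± 0.29, the orphan nuclear receptor Nr4a1 by 0.95 ± 0.18 and the bZIP repressor Nfil3 by 0.69 ± 0.11 (SE; limma adjusted p = 0.0221, 0.0362 and 0.0238). Klf4, a factor of differentiated colon epithelium, fell, at -1.68 ± 0.18 (adjusted p = 0.0113), with its spot saturated on 5 of the 7 inflamed arrays. The other Myc probes gave 1.84 and -0.03, and the other Nfil3 probe 0.55. This count was 0 without 5-ASA inflamed animal 1, and 1 to 6 without any other animal.

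Of 22 genes for MAP kinases and the factors they act on, the ternary complex factor Elk3 rose by 1.18 ± 0.20 and the kinase Map2k6 fell at -1.12 ± 0.11 (SE; limma adjusted p = 0.0306 and 0.00949). The other Elk3 probe gave 0.91 and the other Map2k6 probe -0.27, and the median of the list was 0.18. The calls in this list and in the stress list below stand beside 5.96% of all genes called. None of the 11 EGF family ligands and receptors passed the test, with Erbb4 at -0.62 ± 0.14 and Btc at 0.49 ± 0.14 nearest to it (adjusted p = 0.062 and 0.101). The other Erbb4 probe gave 0.19. Of 17 heat shock and stress genes, listed with handling in mind, the chaperone Hspa8 rose by 1.08 ± 0.15 and the stress gene Ddit4 by 1.46 ± 0.22, and Hsf1 fell at -0.89 ± 0.12 (adjusted p = 0.0186, 0.0213 and 0.0167). The Hsf1 spot was saturated on 2 of the 7 inflamed arrays and the Hspa8 spot on 1 of the 8 polypoid arrays. The other Hsf1 probes gave 0.08 and 0.18, and the other Hspa8 probe 0.81. The median of this list was 0.47, with 14 of 17 differences above 0 and 9 of 17 at an unadjusted p under 0.05. The median of the ERK feedback genes was also 0.47, and the part of handling in either list was not tested. Without either 5-ASA polypoid animal, or without 5-ASA inflamed animal 1, no heat shock gene was called. Of 13 hypoxia genes none was called. With 5-ASA no gene of any of these lists was called.

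**Figure D4:**
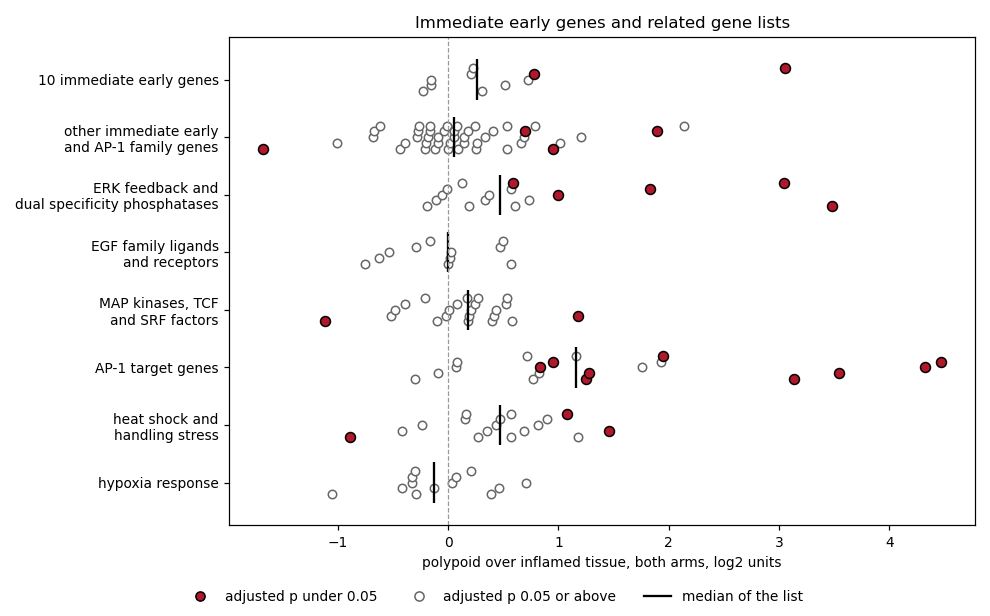
Polypoid over inflamed difference over both arms, in log2 units, for each measured gene of the 10 members and of 7 related lists (filled points have an adjusted p under 0.05, vertical bars are list medians, and vertical scatter within a row only separates points). ERK feedback genes reach 3.48 and AP-1 targets 4.47, while EGF family and hypoxia genes have no filled point.

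Markers of other cells moved with the same groups. The counts of markers that rose or fell stand beside 5.96% of all genes called. Neutrophil markers, of which 3 of 7 measured rose, averaged 1.18 to 2.16 in polypoid and 0.16 to 0.38 in inflamed samples. Of these 7, the number well above background on every array was 7 in 5-ASA and 6 in untreated polypoid tissue, against 2 in 5-ASA and 3 in untreated inflamed tissue, and Camp, Ngp and Elane did not pass the filter on dim signal. Of the 3 that rose, Retnlg and Mmp8 were well above background on all 8 polypoid arrays, against 2 and 0 of the 7 inflamed arrays. Retnlg and Mmp8 passed the filter through polypoid tissue only, so their rise is over signal near background. Smooth muscle markers, of which 4 of 10 fell, averaged 0.45 to 0.92 in polypoid and 1.06 to 2.81 in inflamed samples, highest in both untreated inflamed animals, where Jun was lowest. B and plasma cell markers, of which 1 of 9 fell, averaged 0.31 to 1.71 in polypoid and 1.51 to 3.15 in inflamed samples. Of the mast cell markers 2 of 9, and of the fibroblast markers 1 of 10, rose, and no epithelial, endothelial, macrophage or T and NK cell marker passed the test. The heat shock and stress list averaged -0.15 to 0.31 in polypoid and -0.57 to -0.25 in inflamed samples. Their part in the differences of Ier3, Jun and the related lists was not tested, and in captured tissue fewer cells of a type and less RNA per cell cannot be told apart.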

How the data were processed

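Captured RNA from 8 mice was amplified in 2 rounds, per the labels' protocols, and hybridised to 15 Agilent mouse arrays. Per the file headers, the deposited scanner files hold spot intensity (mean brightness and local background) and a log10 ratio, from Agilent Feature Extraction (version 9.1.1.1). The deposited value table, an alternative here, holds log2 of sample over reference; how the authors made it is not given in the sources used here.

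In R 4.3.3 with limma 3.58.1, intensities were background-corrected (normexp, offset 50) and loess-normalised within arrays, swapped arrays were turned, and a fit of animal plus dye gave 1 log2 value per animal. A probe stayed if some group had its sample channel well above background on all arrays, and the brightest probe stood for a gene. Of the 41174 probes, 22864 were named by accession and 10230 by gene name or synonym through a RefSeq table. The 4 groups were fitted together, with 7 contrasts, a shared spread (4 residual degrees of freedom, prior 2.13), two-sided tests and Benjamini-Hochberg adjustment over all genes. The fit was checked on simulated data.

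The members and lists were chosen with earlier results of these data known. Genes of the lists were named when past the threshold, up to the 4 of smallest p, or the 2 of smallest unadjusted p where none passed. Alternatives were processed signals, an offset of 10, the deposited table, quantile normalization, other filters, outlier spots kept, probe means, Cy3 arrays only, scan session and replicate as blocks, and each animal left out. Counts of related lists under these settings were added after seeing the data. The number of arrays limits the precision.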

Additional observations from a re-analysis of the deposited data

Results flagged for a closer look

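Within the 5-ASA animals or within the untreated animals (4 each, both tissues together), and within the polypoid or inflamed animals, 3 of 40 sets of 4 values held a sample far from the other 3 by Dixon's criterion, which chance alone gives in about 1 of 20 sets. Fos in 5-ASA polypoid animal 1 was at 3.38, against 2.17 to 2.26 in the other 5-ASA animals. Fosl2 in untreated inflamed animal 2 was at -0.16, against 1.20 to 1.36 in the other untreated animals. Dusp1 in 5-ASA polypoid animal 2 was at -2.16, against -1.41 to -1.31 in the other 5-ASA animals.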

How the results depend on the processing

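Called genes, polypoid over inflamed over both arms, numbered 1270, and fell to 0 with scan session as a fixed block (3082 at an unadjusted p under 0.05). They ranged from 133 to 1335 when 1 animal was left out, and members called from 0 to 3 (2 with all animals). Members called numbered 0 with the session block and 1 on Cy3 arrays alone. In the 5-ASA arm 653 genes were called, against 1084 with processed signals, 418 with the deposited table, 0 with the session block and 0 to 890 with 1 animal left out, and members called were 1, 0 with the session block and 0 to 1 with 1 animal left out, Ier3 being the member. In the untreated arm 35 genes were called, against 120 with processed signals (where Ier3 was called, 3.92, adjusted p = 0.0263), 22 with the deposited table, 11 without the filter, 54 with session as a random block, 0 as a fixed block and 0 to 12 with 1 animal left out. The cause of these changes was not tested, but each left-out animal leaves fewer degrees of freedom and the fixed session block leaves 1. With the fixed session block no gene of the 4 related lists counted this way (other immediate early, ERK feedback, AP-1 target and heat shock genes) was called.

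Signs turned for values that did not pass the test. For polypoid over inflamed, Fos was -0.17 with the session block and -0.016 to 0.62 with 1 animal left out, Fosl2 -0.18 to 0.59, Atf3 -0.35 to 0.034 and Dusp1 -0.34 to 0.034. For 5-ASA over untreated, Fosb was -0.00898 with processed signals and -0.013 to 0.078 with 1 animal left out, Junb -0.015 with probes averaged, and Fosl1 -0.53 to 0.22.

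With a replicate block, 1086 genes were called in the 5-ASA arm and 17 in the untreated arm, and no member gained or lost a call. Over both arms Jun was 0.78 (adjusted p = 0.0340) and Ier3 3.05 (adjusted p = 0.0136), and 1766 genes were called. Deviations of animals with the same number correlated at 0.04 to 0.36 over 6 pairs of groups, all above 0. Animal number goes with scan session, and what animals of the same number share was not tested. The main fit did not take the numbers to pair the animals.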
